A study of Mus musculus with 8 samples.

Results

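The genes described here are 30 genes of DNA replication and S phase, taken by name from a list and found on the arrays through the accession of each gene probe. All 30 had at least 1 probe, 46 probes in all, and all 30 passed the filter on dim probes, among 20265 genes that did. The list fell into 8 subgroups by role: the MCM helicase, origin licensing, helicase activation, the clamp and clamp loader, primase, polymerase and Okazaki fragment processing, nucleotide synthesis, cyclin E, and chromatin and histone mRNA.

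The RNA came from mammary tumours of mice with a pair of transgenes, sSHIP and C(3)1 Tag. In the sSHIP transgene, an internal promoter of the SHIP1 gene Inpp5d drives GFP. Tag is the large T antigen of SV40, a viral oncoprotein that inactivates p53 and the retinoblastoma proteins. All samples carried both transgenes, so no group lacked T antigen. Dissociated tumours were sorted into Lin-CD49f+GFP+ cells (GFP-positive) and Lin-CD49f+GFP- cells (GFP-negative), where Lin- means without the lineage antigens, which the labels do not list, and CD49f is the integrin subunit encoded by Itga6. Each population was measured on 4 arrays, whose titles carry the numbers 566, 567, 573 and 631, taken here to mark tumours. The labels give no strain, age or treatment and do not say that each number was a separate animal, and p-values then reflect only how these samples vary, which may be technical.

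Before a cell copies its DNA, the origin recognition complex, Cdc6 and Cdt1 load the ring of Mcm2 to Mcm7 onto origins, and Cdc45, the GINS complex and Mcm10 then turn that ring into the moving helicase. Primase and polymerase alpha start each strand, the clamp loader places the Pcna ring on the DNA, and ribonucleotide reductase, thymidylate synthase and thymidine kinase supply its building blocks. Most of these genes are transcribed by E2F factors, which the retinoblastoma proteins restrain and which are freed when T antigen binds those proteins.

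Promoter sequences of 26 of the 30 genes were matched by symbol to a RefSeq table of build GRCm38.p6. Those of Mcm4, Gins1, Gins2 and Ccne2 had no match. The 250 bases before each start were searched on both strands for the letters TTTCCCGC, TTTCGCGC, TTTGCCGC and TTTGGCGC, the forms of an E2F motif. They were present in 8 of the 26 genes (30.8%), namely Mcm5, Mcm6, Mcm7, Orc1, Cdc6, Rfc3, Pola1 and Uhrf1, against 583 of 27025 genes with a promoter in the table (2.16%) and 1 of 20 mitosis genes (5%). The letters CCAAT, the core that NF-Y binds, were present on either strand in 17 of the 26 (65.4%), 37.5% of all genes and 17 of the 20 mitosis genes (85%). The 170 bases next to the start are shown, 5′ to 3′ in the direction of the gene, for 3 genes with a match at differing positions and for Cdt1 and Ccne1, whose levels varied between tumours. Capitals mark the E2F letters, and matches on opposite strands that overlap form 1 run.
Mcm5, chr8:75109339-75109508, plus strand: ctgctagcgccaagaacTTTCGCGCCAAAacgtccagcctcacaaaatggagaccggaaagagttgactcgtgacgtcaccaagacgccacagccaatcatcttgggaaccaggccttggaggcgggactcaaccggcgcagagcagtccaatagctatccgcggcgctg
Mcm6, chr1:128359706-128359875, minus strand: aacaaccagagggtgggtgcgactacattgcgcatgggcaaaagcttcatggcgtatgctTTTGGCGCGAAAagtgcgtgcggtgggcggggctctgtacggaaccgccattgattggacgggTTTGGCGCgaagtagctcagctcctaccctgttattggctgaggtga
Orc1, chr4:108579284-108579453, plus strand: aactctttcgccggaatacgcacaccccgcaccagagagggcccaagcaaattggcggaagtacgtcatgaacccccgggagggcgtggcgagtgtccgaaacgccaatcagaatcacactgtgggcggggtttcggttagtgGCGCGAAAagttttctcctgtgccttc
Cdt1, chr8:122567845-122568014, plus strand: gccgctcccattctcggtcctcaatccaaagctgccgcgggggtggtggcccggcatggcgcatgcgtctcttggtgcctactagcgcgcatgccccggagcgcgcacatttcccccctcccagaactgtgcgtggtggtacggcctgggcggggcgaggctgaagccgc
Ccne1, chr7:38107491-38107660, minus strand: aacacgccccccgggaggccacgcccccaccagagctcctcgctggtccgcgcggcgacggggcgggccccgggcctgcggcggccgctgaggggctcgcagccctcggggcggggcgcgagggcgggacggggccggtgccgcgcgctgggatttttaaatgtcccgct
Mcm5 held a pair of overlapping matches, Mcm6 held such a pair and another match nearer the start, and Orc1 held 1 on the opposite strand within 27 bases of the start. Cdt1 and Ccne1 had none of these letters in the 250 bases. A match describes the letters and is not a measured binding site.

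The share of gene spots well above background was 53.5% to 58.5% on 7 arrays and 34.1% on the GFP-positive array of tumour 573. On that array the dimmest spot so rated had 142 units of intensity, against 13.4 to 23.5 elsewhere. The arrays' 75th percentiles ran from 344 to 580 units, and their number limits the precision. The 4 GFP-positive arrays filled 1 column of the slide and the 4 GFP-negative arrays the other column, so the effects of column and population cannot be told apart. Of 8 basal and 8 luminal epithelial markers, 7 and 8 were well above background on all 4 arrays of either population. Of 8 leukocyte markers, Ptprc, Cd3g and Ms4a1 were so on no array, and Cd3e was on all 8. The summed level of the 8 leukocyte markers was 1.265 to 3.329 in GFP-positive and 1.95 to 2.388 in GFP-negative cells, in the same units as the next sum. The summed level of 8 pericyte markers was 9.26 to 19.6 in GFP-positive and 22.1 to 31.0 in GFP-negative cells, in units of the array's 75th percentile.

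The replication genes gave clear signal in both populations. A level here is log2 of a probe's intensity over the 75th percentile of its array, and levels of different genes come from different probes and are not compared. Of the 30 genes, 29 were well above background on all 8 arrays, Ccne2 was on 7, and no spot was saturated. Intensities of the 29 were 337 units or more on each array.

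None of the 30 genes passed the test for a difference between GFP-positive and GFP-negative cells in limma with the tumour as a block and Benjamini-Hochberg adjustment over all genes (threshold 0.05; adjusted p 0.889 to 0.998). The background was the same, with 0 of 20265 genes called (percent called 0) and no adjusted p below 0.459. Before adjustment 1 of the 30 had a p under 0.05 (Cdt1, 3.33%) against 1113 of all genes (5.49%). Fits without the block and with it as a random term also called 0 genes, with 161 and 1005 at an unadjusted p under 0.05, and none of the 30 among them. Differences, GFP-positive minus GFP-negative, ran from -0.34 for Cdt1 to 0.02 for Rfc4, with an SE of 0.13 to 0.22. Over the 30 genes the 95% intervals lay between -0.78 and 0.49, so a difference of a size within these bounds could go undetected with 4 pairs. In sorted bulk RNA, fewer cells of a type and less RNA per cell cannot be told apart.

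Of the 30 genes, 27 were lower in GFP-positive cells on average (90%), with a median difference of -0.14. Over all genes 63.5% were lower, with a median of -0.06, and 69.9% of genes with a mean level of 2 or more were lower. The split moves with the scaling: with quantile scaling, and with 2 other scalings given at the end, 19 of the 30 were lower. On the probes used, only Mcm2, Mcm3, Cdc6 and Cdt1 were lower in all 4 pairs, which is 13.3% of the genes against 10.8% of all genes. Mcm3 differed by only -0.01 in tumour 567, and another of its probes was higher in GFP-positive cells of tumour 566, by 0.17. In all 30 genes the GFP-positive and GFP-negative arrays overlapped (percent called for arrays that do not overlap, over all genes, 0.834).

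**Figure D1:**
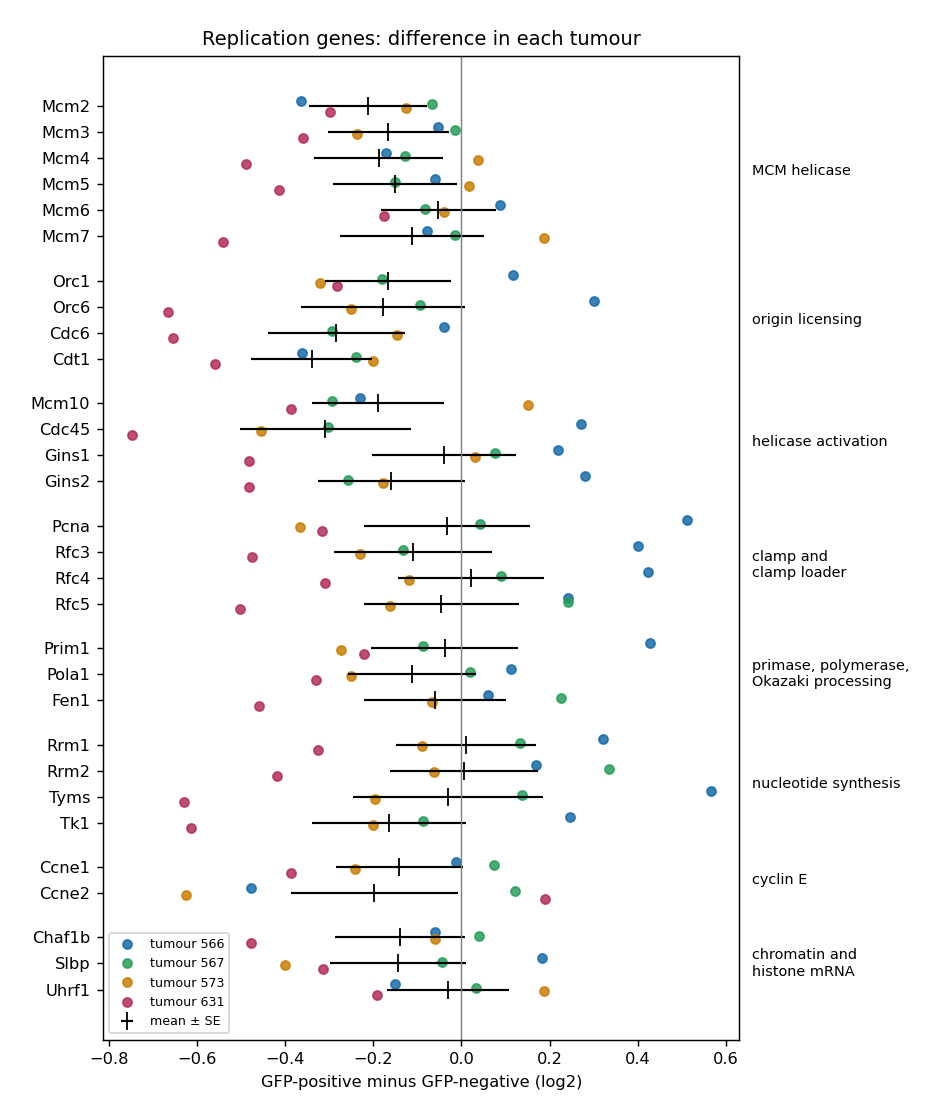
Difference between GFP-positive and GFP-negative cells (horizontal axis, log2) for each of the 30 genes, grouped by role: 1 coloured point per tumour, set slightly apart vertically, with the mean and its SE from the fit in black. Most points of tumour 631 lie left of 0 and many points of tumour 566 lie right of it, and the means run from -0.34 (Cdt1) to 0.02 (Rfc4).

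The 6 subunits of the MCM helicase, the ring that unwinds DNA ahead of the fork, were all lower on average in GFP-positive cells by small amounts that did not pass, with a median of -0.16 and differences from -0.21 (Mcm2) to -0.05 (Mcm6). Mcm2 levels in tumours 566, 567, 573 and 631 were 3.18, 2.78, 3.04 and 3.05 in GFP-positive cells and 3.54, 2.85, 3.17 and 3.35 in GFP-negative cells. Each pair was lower in GFP-positive cells, and yet the GFP-positive level of tumour 566 lay above both levels of tumours 567 and 573. The mean difference of Mcm2 was -0.21 (SE 0.13, adjusted p = 0.894), a ratio of 0.863 with a 95% interval of 0.689 to 1.08. Mcm4, in the same order of tumours, stood at 4.60, 4.86, 4.46 and 5.10 in GFP-positive cells and 4.77, 4.99, 4.42 and 5.59 in GFP-negative cells. Tumour 631 was highest in both populations, and the pair of tumour 573 differed by 0.04 in the other direction. The mean difference of Mcm4 was -0.19 (SE 0.15, adjusted p = 0.900). Mcm6 stood at 6.92, 6.20, 6.53 and 6.26 in GFP-positive and 6.84, 6.28, 6.57 and 6.43 in GFP-negative cells, with tumour 566 highest in both. Its mean difference was -0.05 (SE 0.13), and another Mcm6 probe gave 0.02, the sole mean of opposite sign among 16 further probes of the 30 genes. Differences within a tumour changed sign between probes in more genes. Mcm3, Mcm5 and Mcm7 differed by -0.17, -0.15 and -0.11, and in each of them the pair of tumour 631 had the lowest difference, from -0.36 for Mcm3 to -0.54 for Mcm7. Over the 8 arrays Mcm3 ran from 5.66 to 6.10, Mcm5 from 4.01 to 4.78 and Mcm7 from 5.23 to 5.80.

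The 4 origin licensing genes, which put the helicase onto DNA, had the lowest subgroup median, -0.23, with all 4 lower on average and none passing. Cdt1, the factor that delivers the MCM ring to the origin, stood at 4.36, 4.07, 4.31 and 4.86 in GFP-positive cells of tumours 566, 567, 573 and 631 and at 4.72, 4.31, 4.51 and 5.42 in GFP-negative cells. All 4 pairs were lower in GFP-positive cells, by 0.36, 0.24, 0.20 and 0.56, while the GFP-positive level of tumour 631 exceeded the GFP-negative level of the other 3 tumours. Cdt1 differed by -0.34 (SE 0.14, unadjusted p = 0.0458, adjusted p = 0.889), a ratio of 0.790 with an interval of 0.628 to 0.994. Cdc6, the ATPase that works with the origin complex, stood at 1.99, 1.26, 1.99 and 1.55 in GFP-positive cells and 2.03, 1.55, 2.14 and 2.20 in GFP-negative cells. The pair of tumour 631 differed most, by -0.65, and that of tumour 566 by -0.04. Its mean difference was -0.28 (SE 0.16, adjusted p = 0.889). Orc6, a subunit of the origin recognition complex, stood at 3.35, 2.87, 3.36 and 3.59 in GFP-positive and 3.05, 2.97, 3.62 and 4.26 in GFP-negative cells. Tumour 566 was higher in GFP-positive cells by 0.30 and tumour 631 lower by 0.67, and the mean difference was -0.18 (SE 0.19, adjusted p = 0.933). Orc1, the largest subunit of that complex, differed by -0.17 (SE 0.14), with levels of 0.53 to 1.33 over the 8 arrays.

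The 4 genes that activate the loaded helicase had a median difference of -0.17, all lower on average and none passing. Cdc45, which joins the ring at the start of S phase, stood at 0.44, 0.60, -0.03 and 0.68 in GFP-positive cells and 0.17, 0.90, 0.43 and 1.42 in GFP-negative cells of tumours 566, 567, 573 and 631. Tumour 566 was higher in GFP-positive cells and the other 3 were lower, by up to 0.75 in tumour 631, which was the lowest single-pair difference among the 30 genes. The mean difference of Cdc45 was -0.31 (SE 0.19, adjusted p = 0.894), with an interval from -0.78 to 0.16. Mcm10, a scaffold of the active helicase, stood at 2.27, 2.24, 2.51 and 2.11 in GFP-positive and 2.50, 2.53, 2.36 and 2.50 in GFP-negative cells. Its GFP-negative arrays lay within a narrow range and tumour 573 was the one with a higher GFP-positive level, for a mean difference of -0.19 (SE 0.15, adjusted p = 0.901). Gins2, a subunit of the GINS complex, stood at 3.30, 2.81, 3.94 and 3.29 in GFP-positive and 3.02, 3.07, 4.11 and 3.77 in GFP-negative cells. Both arrays of tumour 573 were the highest of the 8, and the mean difference between populations was -0.16 (SE 0.17, adjusted p = 0.933). Gins1, of the same complex, was higher in GFP-positive cells in 3 tumours, by only 0.03 in tumour 573, and lower by 0.48 in tumour 631. Its mean difference was -0.04 (SE 0.16) over levels of 1.47 to 2.35. Another Gins1 probe was higher in tumour 566 alone, by 0.33, and differed by -0.12, -0.21 and -0.50 in tumours 567, 573 and 631.

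Pcna, the sliding clamp, and 3 subunits of the complex that loads it had differences of opposite sign in different tumours, none tested within a tumour. Their median difference was 0.41 in tumour 566, 0.07 in tumour 567, -0.20 in tumour 573 and -0.40 in tumour 631, and -0.04 on average, with 3 of the 4 lower and none passing. Rfc3 stood at 4.22, 4.14, 4.60 and 3.84 in GFP-positive and 3.82, 4.27, 4.83 and 4.32 in GFP-negative cells, in the same order. Its GFP-positive level was the higher in tumour 566 by 0.40 and the lower in tumour 631 by 0.48, and the mean difference was -0.11 (SE 0.18, adjusted p = 0.974). Rfc4 stood at 4.36, 3.97, 4.50 and 3.92 in GFP-positive and 3.94, 3.88, 4.62 and 4.22 in GFP-negative cells. It was higher in GFP-positive cells in 2 tumours and lower in the other two, for a mean of 0.02 (SE 0.17, adjusted p = 0.998). Rfc5 stood at 5.17, 5.23, 5.51 and 4.92 in GFP-positive and 4.93, 4.99, 5.67 and 5.42 in GFP-negative cells. The same 2 tumours were higher, and the mean difference was -0.05 (SE 0.18). Pcna differed by 0.51 in tumour 566, by 0.04 in tumour 567 and by -0.37 and -0.32 in tumours 573 and 631, for a mean of -0.03 (SE 0.19) and an interval from -0.49 to 0.42. Its levels ran from 5.60 in GFP-positive cells of tumour 631 to 6.53 in those of tumour 566.

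Of the 3 genes of strand synthesis, Prim1 encodes the catalytic subunit of primase, Pola1 that of polymerase alpha, and Fen1 the nuclease that trims Okazaki fragments. All 3 were lower on average by 0.04 to 0.11, with a median of -0.06, and none passed. Prim1 stood at 4.51, 3.53, 4.34 and 3.60 in GFP-positive and 4.08, 3.62, 4.61 and 3.82 in GFP-negative cells of tumours 566, 567, 573 and 631. Tumours 566 and 573 lay above tumours 567 and 631 in both populations, and the mean difference was -0.04 (SE 0.17, adjusted p = 0.998). Pola1 stood at 3.18, 3.19, 3.09 and 3.07 in GFP-positive and 3.07, 3.17, 3.34 and 3.40 in GFP-negative cells. It was among the least variable of the genes, with all 8 arrays between 3.07 and 3.40 and a mean difference of -0.11 (SE 0.14, adjusted p = 0.955). Fen1 differed by -0.06 (SE 0.16), with a highest level of 5.05 in GFP-positive cells of tumour 567 and a lowest of 4.45.

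Nucleotide synthesis genes likewise differed upwards in some tumours and downwards in others. Their median difference was 0.28 in tumour 566, 0.14 in tumour 567, -0.14 in tumour 573 and -0.52 in tumour 631, and -0.01 on average, with 2 of 4 lower and none passing. Tyms, thymidylate synthase, stood at 4.69, 4.99, 5.27 and 4.57 in GFP-positive and 4.12, 4.86, 5.46 and 5.20 in GFP-negative cells. Its pair differences, 0.56 in tumour 566 and -0.63 in tumour 631 at the extremes, gave a mean of -0.03 (SE 0.22, adjusted p = 0.998) and an interval from -0.55 to 0.49. Tk1, thymidine kinase, stood at 3.75, 3.41, 3.62 and 3.41 in GFP-positive and 3.50, 3.49, 3.82 and 4.03 in GFP-negative cells. The highest level of Tk1 was that of GFP-negative cells of tumour 631, and the mean difference was -0.16 (SE 0.17, adjusted p = 0.935). Rrm2, the regulated subunit of ribonucleotide reductase, stood at 4.05, 4.39, 3.93 and 4.60 in GFP-positive and 3.88, 4.06, 4.0 and 5.02 in GFP-negative cells. Tumour 631 was highest in both populations, and the mean difference was 0.01 (SE 0.17, adjusted p = 0.998). Rrm1, the large subunit, also differed by 0.01 (SE 0.16), over levels of 3.51 to 4.24, and its highest array was the same as that of Rrm2, GFP-negative cells of tumour 631.

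Cyclin E activates Cdk2 at the entry into S phase, and its genes were measured at unequal quality. Ccne1 stood at 2.83, 2.69, 2.13 and 3.36 in GFP-positive and 2.84, 2.62, 2.37 and 3.74 in GFP-negative cells of tumours 566, 567, 573 and 631. In tumours 566 and 567 the populations differed by -0.01 and 0.07, and the mean difference was -0.14 (SE 0.14, adjusted p = 0.933). Ccne2 was a dim probe, at -4.03, -3.88, -3.41 and -3.47 in GFP-positive and -3.55, -4.0, -2.79 and -3.66 in GFP-negative cells, and on the GFP-positive array of tumour 573 it was not well above background. It differed by -0.48 and -0.62 in tumours 566 and 573 and by 0.12 and 0.19 in tumours 567 and 631, for a mean of -0.20 (SE 0.19, adjusted p = 0.926), and it was the sole gene of the 30 that was higher in GFP-positive cells of tumour 631.

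Chaf1b, a subunit of the assembly factor that puts histones on new DNA, stood at 4.09, 4.55, 4.44 and 4.74 in GFP-positive and 4.15, 4.52, 4.50 and 5.22 in GFP-negative cells. The populations of tumour 631 differed by -0.48 and those of the other 3 tumours by -0.06 to 0.04, and the mean difference was -0.14 (SE 0.15, adjusted p = 0.935). Slbp, which binds the stem-loop of histone mRNA, differed by -0.14 (SE 0.15) over levels of 1.02 to 1.45, and Uhrf1, which brings the maintenance methyltransferase to newly copied DNA, by -0.03 (SE 0.14) over levels of 4.30 to 4.69.

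Levels of the replication genes varied between tumours more than between populations. For a median of these genes, 72.4% of the sum of squares lay between tumours and 4.48% between populations, beside 76.8% and 3.14% over all genes, with more degrees of freedom in the tumour term. An F test across the 4 tumours in the same limma fit called 3 of the 30 genes after adjustment over all genes (10%), whereas 5834 of 20265 genes (28.8%) were called. The share of the replication genes lay below that background, and the difference in share was not tested. The range of tumour means had a median of 0.63 over the 30 genes and 0.82 over all genes.

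Ccne1 had the widest range, 1.30, with tumour means of 2.84, 2.65, 2.25 and 3.55 for tumours 566, 567, 573 and 631 (F test, limma, adjusted p = 0.0235), a ratio of 2.47 between tumours 631 and 573. Both arrays of tumour 631 lay above the other 6 and both of tumour 573 lay below them. Cdt1 means were 4.54, 4.19, 4.41 and 5.14 (adjusted p = 0.0439), with both arrays of tumour 631 above the rest. For Gins2 they were 3.16, 2.94, 4.03 and 3.53 (adjusted p = 0.0495), with both arrays of tumour 573 above the rest. No call of these 3 held when tumour 567, 573 or 631 was left out (adjusted p 0.0538 to 0.161 for Ccne1, 0.0736 to 0.362 for Cdt1 and 0.0553 to 0.293 for Gins2), and that of Cdt1 was lost without tumour 566 too (0.0516). Quantile scaling called 2 of the 30 genes, Ccne1 and Prim1, median centring 6 and normexp 8, and without a filter on dim probes none of the 30 and 0 of 45586 genes were called by limma (1 and 7666 at an unadjusted p under 0.05). The next in order were Mcm4 (range 0.91, adjusted p = 0.0605) and Prim1 (range 0.90, adjusted p = 0.0619). At the other end Pola1, Mcm10, Slbp, Uhrf1 and Mcm3 had ranges of 0.11, 0.13, 0.13, 0.22 and 0.23 between tumours (adjusted p 0.956, 0.946, 0.933, 0.739 and 0.704).

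**Figure D2:**
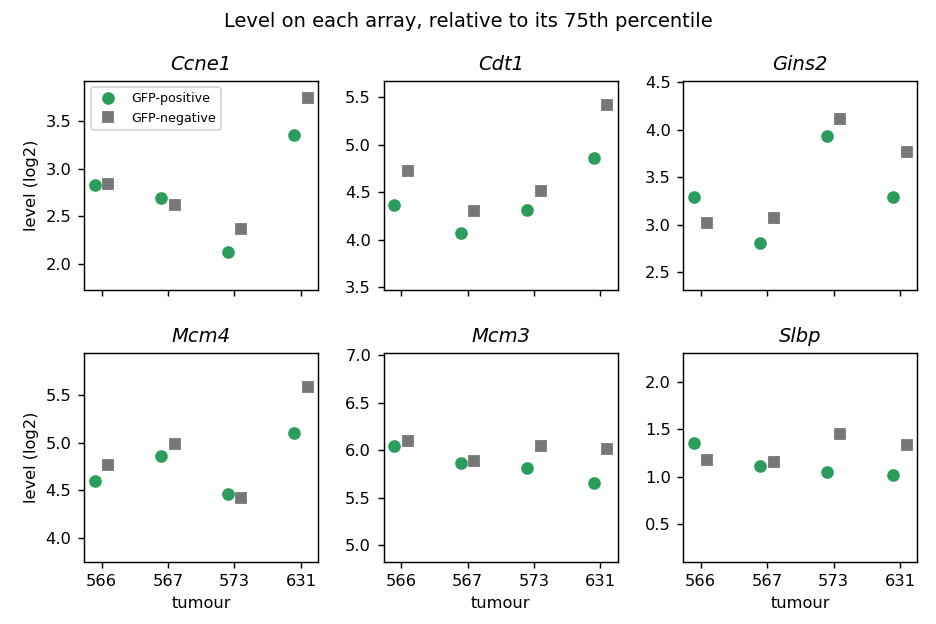
Level (vertical axis, log2 relative to the array's 75th percentile) of 6 replication genes on the 8 arrays, by tumour, with GFP-positive cells as circles and GFP-negative cells as squares; every panel spans the same height. Ccne1, Cdt1 and Gins2, called across tumours, have both arrays of tumour 631 (Ccne1, Cdt1) or tumour 573 (Gins2) above the rest. The tumour means of Mcm3 and Slbp have ranges of 0.23 and 0.13.

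No tumour was high or low for the whole group of genes. Tumour 573 had the highest mean for 13 of the 30 genes (43.3%, beside 34.8% of all genes), tumour 631 for 10 (33.3%, beside 31.1%), tumour 566 for 6 (20%, beside 18%) and tumour 567 for 1 (3.33%, beside 16.1%). Tumour 567 had the lowest mean for 14 (46.7%, beside 30.9%), all 4 origin licensing genes among them. Of the nucleotide synthesis genes 3 of 4 were highest in tumour 631, and of the clamp and clamp loader genes 3 of 4 were highest in tumour 573.

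The difference between populations was not alike in the 4 tumours, and with 1 pair of arrays per tumour this could not be tested. The median over the 30 genes was 0.11 in tumour 566, -0.03 in tumour 567, -0.17 in tumour 573 and -0.42 in tumour 631, with 12, 17, 24 and 29 of the 30 genes lower in GFP-positive cells. Beside them, the 5558 genes with a mean level of 2 or more, pooled whatever their kind, had medians of 0.15, 0.0069, -0.12 and -0.31, with 35.4%, 48.3%, 70.3% and 83.9% lower. Over all genes tested the medians were 0.02, -0.01, -0.09 and -0.20. Tumour 631 set much of the average: without it 18 of the 30 genes were lower, with a median of -0.02 for them and -0.02 for all genes. The median SD of a gene's pair differences was 0.286 for the 30 genes and 0.337 for all genes.

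**Figure D3:**
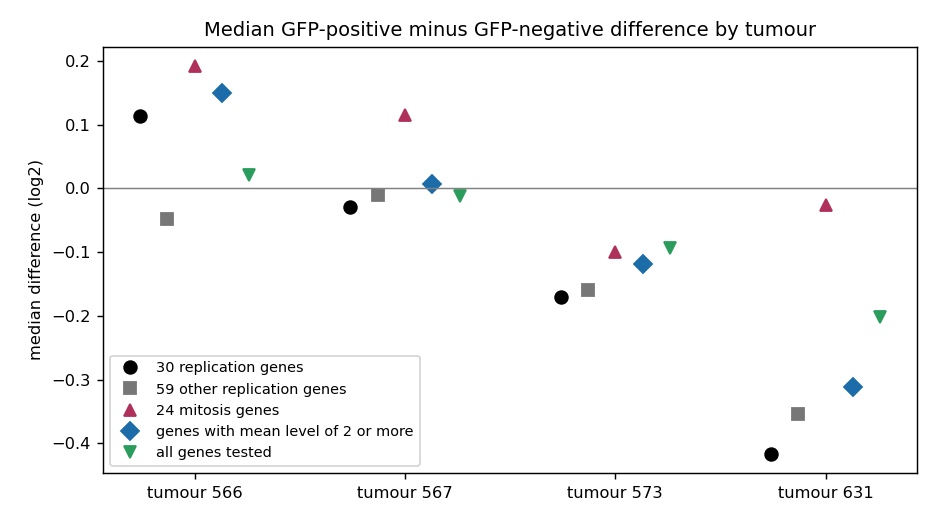
Median difference between GFP-positive and GFP-negative cells (vertical axis, log2) in each tumour for the 30 replication genes, 59 other replication genes, 24 mitosis genes, genes with a mean level of 2 or more, and all genes tested. From tumour 566 to tumour 631 the replication genes go from 0.11 to -0.42 and the genes with a level of 2 or more from 0.15 to -0.31, while the mitosis genes stand at -0.03 in tumour 631.

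The cell populations also differed in other ways, and not in tumour 631 alone. In tumour 566 the summed levels of fibroblast and of endothelial markers, given below, were higher in GFP-positive cells. In tumour 631 the 8 luminal markers had a median difference of 3.61 and the 8 basal markers one of 2.30. The other tumours had medians of -0.24 to 0.79 and 0.01 to 0.62 for these lists. Epcam differed by 4.0, Krt14 by 4.26 and Krt5 by 3.99 in tumour 631. In each list 2 of the 8 markers went the other way there. Luminal Krt8 and Krt18 differed by -0.29 and -0.11, and basal Trp63 and Itga6 by -0.04 and -0.18. Itga6 encodes CD49f, on which the cells were sorted. The summed level of the basal markers was 38.0 in GFP-negative cells of tumour 631 and 103.1 to 254.8 on the other 7 arrays, and that of the luminal markers was 333.5 there and 280.9 to 549.9 on the others. For markers of other cell types, some of them not above background on an array, the summed level of the whole list of 8 is given. Of the pericyte markers 1 was well above background on all GFP-positive arrays and 8 on all GFP-negative arrays, and the sums did not overlap, as given above. Rgs5, Higd1b, Kcnj8, Abcc9, Cspg4 and Pdgfrb each missed only 1 GFP-positive array. On the GFP-positive array of tumour 573 that rating began at 142 units, far above the other arrays. Of the macrophage markers 2 and 6 were well above background on all arrays of those populations, and C1qb, Aif1 and Fcer1g each missed only 1 array. Macrophage sums over the whole list were 5.58 to 10.66 in GFP-positive and 8.67 to 13.9 in GFP-negative cells. They were higher in GFP-positive cells in tumour 566 and lower in the other tumours. In tumours 566, 567, 573 and 631 fibroblast sums were 227.9, 121.9, 14.5 and 133.2 in GFP-positive cells. In GFP-negative cells they were 53.7, 143.1, 18.0 and 63.35. Endothelial sums, in that order, were 18.8, 5.43, 8.67 and 1.63 in GFP-positive and 1.29, 2.63, 6.13 and 1.30 in GFP-negative cells. These were higher in GFP-positive cells in each pair. The part of these cell types, and of the dimmer GFP-positive array of tumour 573, in the differences of the replication genes was not tested.

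Of 59 further genes of the pathway, 53 were lower (89.8%, beside 63.5% of all genes) and 6 higher on average in GFP-positive cells, with a median of -0.13, and none passed. Their medians were -0.05, -0.0099, -0.16 and -0.35 in tumours 566, 567, 573 and 631, without the value above 0 that the 30 genes had in tumour 566. At an unadjusted p under 0.05 there was 1 (1.69%, beside 5.49% of all genes), and 10 were lower in all 4 pairs (16.9%, beside 10.8%). Those with the smallest p among the lower were Cdk2, the kinase partner of cyclin E, at -0.34 (SE 0.14), and Mcm8, a helicase of recombination and repair, at -0.34 (SE 0.15), both with an adjusted p of 0.889. Among the higher they were E2f2, an E2F activator, at 0.28 (SE 0.22, adjusted p = 0.900), and Rnaseh2b, a subunit of an enzyme that removes ribonucleotides from DNA, at 0.03 (SE 0.14, adjusted p = 0.998). The mean of E2f2 came with 0.99 in tumour 631 and -0.14, 0.33 and -0.06 in tumours 566, 567 and 573. E2f1, another activator, differed by -0.25 (SE 0.14) and E2f8, a repressor, by -0.15 (SE 0.14), neither past the test. Across tumours 9 of the 59 were called (15.3%, below the 28.8% of all genes).

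Mitosis genes, which act later in the same cell cycle, were split otherwise. Of 24, 8 were lower and 16 higher on average, with a median of 0.06, and none passed. Their medians were 0.19, 0.12, -0.10 and -0.03 in tumours 566, 567, 573 and 631, and the difference from the replication genes in tumour 631, where those stood at -0.42, was not tested. Mki67, the proliferation antigen, had pair differences of -0.40, 0.12, -0.04 and 0.63 in that order and a mean of 0.08 (SE 0.19, adjusted p = 0.990), and Top2a, the topoisomerase of dividing cells, had a mean of -0.01 (SE 0.14, adjusted p = 0.998). Across tumours 6 of the 24 were called (25%, near the 28.8% of all genes).

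The count of lower genes depended on how the arrays were scaled. Subtracting each array's 75th percentile gave 27 of 30 lower, with 63.5% of all genes. Quantile scaling gave 19 with 62.6%, the 75th percentile over probes above background on all arrays gave 19 with 47.7%, and centring on genes with a mean level of 2 or more, chosen after seeing the data, gave 19 with 44.9%. Median centring gave 30 with 73.8%, and normexp background correction gave 30 with 59.9%. The median difference of the 30 genes was -0.07, -0.07 and -0.06 with the 3 scalings that gave 19, -0.19 with median centring and -0.13 with normexp, and none of the 30 genes was called with any of them. Median centring moved the median of all genes in tumour 573 from -0.09 to -0.55 and that of the replication genes from -0.17 to -0.63. Other than quantile scaling and normexp, these scalings shift every gene of an array by 1 amount, so which of the 30 genes lay below 0 under them only restates the order of their differences.

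**Figure D4:**
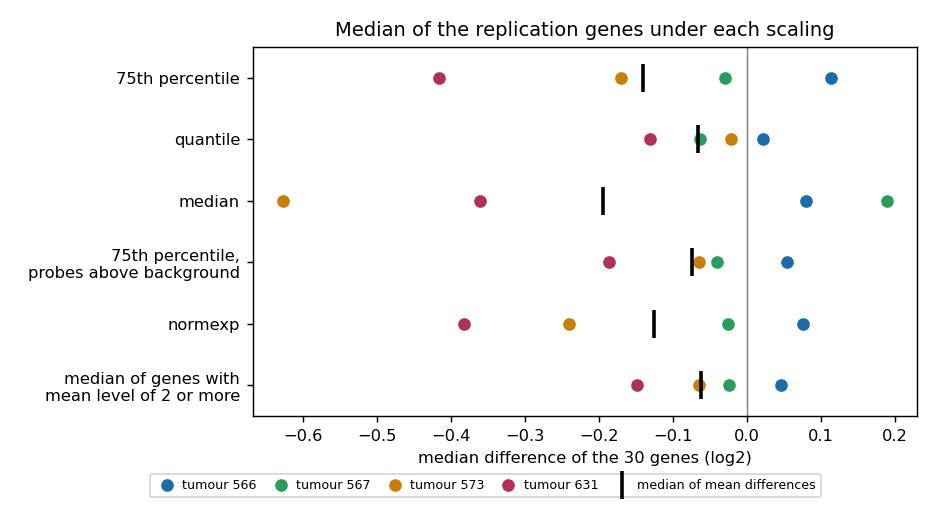
Median difference of the 30 replication genes (horizontal axis, log2) in each tumour (coloured points) and of the mean over tumours (black bars) under 6 ways of scaling the arrays. With the 75th percentile the bar stands at -0.14 and with the other 5 between -0.19 and -0.06, and tumour 573 runs from -0.63 with median centring to -0.02 with quantile scaling.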

How the data were processed

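Total RNA labelled with Cy3 from 8 sorted samples was measured on 1-colour Agilent arrays, 1 per sample. The authors deposited linear intensity per spot, which the submitters' processing notes credit to Agilent Feature Extraction 10.7.3.1. It was background-subtracted and detrended but not normalized between arrays, per the file headers. A table of all samples held identical intensity in 62976 spots per array, with column medians of 23.6 to 36.6, and was not used further.

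Control and outlier-flagged spots were removed and repeated spots averaged, which kept 56555 of 56605 gene probes. The files used here pair probes with accessions, which were matched, ignoring versions, to RefSeq gene names of GRCm38.p6, and 32969 probes gained a symbol. Intensity was log2-transformed and the 75th percentile of each array's 59305 gene spots was subtracted. A probe was kept if it was well above background on all 4 arrays of 1 population or both (26316 probes), and the brightest such probe, by its mean, stood for its gene.

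Populations were compared with limma 3.58.1 in R 4.3.3 with the tumour number as a fixed block, and tumours with the F test of the same fit, all 8 arrays entering. Adjustment was by Benjamini-Hochberg over 20265 genes. The procedure was run on simulated data with planted changes far larger than any difference of the replication genes. It therefore does not show whether differences of their size would be called. The numbers come from the titles. After removing population means, arrays with the same number correlated over genes at 0.573, 0.695, 0.642 and 0.741, against at most 0.221 for other pairs. The members and lists were chosen with earlier results of these data known. Genes with levels given in full were, per subgroup, those with the smallest p for the population difference and across tumours, and Ccne2, which was not above background on an array. Of the other replication genes, those with the smallest p in each direction are named, and E2f1, E2f8, Mki67, Top2a and the epithelial markers were named after their values were seen. Alternatives were other scalings, normexp with an offset of 50, other filters and a common floor for dim probes, the mean of a gene's probes, an intensity trend, no or a random block, and each tumour left out. Normexp was planned on mean signals and run on median foreground and background signals.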

Additional observations from a re-analysis of the deposited data

Results flagged for a closer look

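Of 60 groups of 4 arrays (30 genes in 2 populations), 4 held an array far from the other 3 by Dixon's criterion, and chance gives about 1 in 20. Fen1 stood at 5.05 in GFP-positive cells of tumour 567, against 4.48 to 4.51 in the other GFP-positive cells. Rrm1 stood at 4.24 in GFP-negative cells of tumour 631, against 3.51 to 3.63 in the other GFP-negative cells. Rrm2, the partner subunit of Rrm1, stood at 5.02 on that same array, against 3.88 to 4.06. Uhrf1 stood at 4.69 in GFP-negative cells of tumour 566, against 4.46 to 4.50.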

How the results depend on the processing

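Of the 16 alternatives run, 0 called any of the 30 replication genes between populations. Median centring called 126 of all genes there, 68 higher and 58 lower, and the other 15 called 0. The fit with no replicate block called 0 genes with a smallest adjusted p of 0.675, and a random replicate block 0 with 0.0532, and neither changed a call. Across tumours 5834 genes were called, but 2463 with quantile scaling, 1502 with a common floor, 0 with no filter on dim probes (45586 genes tested) and 2260 to 4232 with a tumour left out. Among the 30 genes 3 were called, but 6 with median centring, 8 with normexp, 5 with probes above background on all 8 arrays, 5 with an intensity trend, 0 with no filter, 0 with a common floor and 0 to 3 with a tumour left out. Of the 3, the adjusted p of Ccne1 was 0.266 with no filter and 0.0592 with the floor. The p of Cdt1 was 0.0999 with quantile scaling, 0.0513 with the percentile over probes above background, 0.0530 with centring on bright genes, 0.351 with no filter and 0.0605 with the floor. For Gins2 it was 0.0556 with quantile scaling, 0.385 with median centring, 0.350 with no filter, 0.132 with the floor and 0.0633 with the mean of its probes. With a tumour left out, 18 to 30 of the 30 genes were lower in GFP-positive cells, with medians from -0.19 to -0.02.

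Of 479 cases, each a gene under an alternative, some could not change a mean difference. These were 30 cases each with no block, a random block and an intensity trend. The 30 with no filter and the 29 with probes above background on all 8 arrays kept their sign. Mean differences between populations turned sign in 49 of the 479 cases, none called. With quantile scaling they became 0.0116 for Mcm6, 0.0125 for Gins1, 0.029 for Pcna, 0.0435 for Rfc5, 0.028 for Prim1, 0.0185 for Fen1, 0.0675 for Tyms and 0.0251 for Uhrf1. With the percentile over probes above background these genes, in that order, were at 0.0142, 0.0276, 0.0343, 0.0212, 0.0285, 0.0068, 0.0356 and 0.036. With centring on bright genes, added after the data were seen, they were at 0.0255, 0.0389, 0.0456, 0.0325, 0.0398, 0.0181, 0.0469 and 0.0473. Rfc4, Rrm1 and Rrm2 went to -0.0328, -0.0439 and -0.0489 with median centring and to -0.0795, -0.0503 and -0.061 with normexp. With a tumour left out the range was -0.155 to 0.0736 for Fen1, -0.125 to 0.109 for Gins1, -0.212 to 0.0313 for Mcm7, -0.213 to 0.0791 for Pcna, -0.193 to 0.0402 for Prim1, -0.28 to 0.0127 for Rfc3, -0.113 to 0.131 for Rfc4, -0.141 to 0.107 for Rfc5, -0.0935 to 0.122 for Rrm1, -0.104 to 0.147 for Rrm2, -0.229 to 0.169 for Tyms and -0.103 to 0.0231 for Uhrf1. With the floor Ccne2 was at the floor on all arrays. The cause of these shifts was not tested. A block for the slide was not run because all arrays lay on 1 slide. The fits without a fixed block gave no test across tumours. Signal over background limited Ccne2 alone among the 30 genes.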
